A study of Mus musculus with 12 samples.

Results

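The comparison described here set the 3 libraries of the lncRNA5251 knockdown, labelled C18_5251KD and called KD here, against the 3 libraries of its second control, 5NC, over every gene that reached 1 RPKM in at least 3 of these 6 libraries. RPKM, read number scaled to the length of the transcript and to the mapped reads of the library, is a level corrected for gene length and for sequencing depth. The deposited table lists 17576 genes, of which 11328 passed this filter, and 6 of the 12 libraries of the series were compared. All libraries came from C18-4, an immortalised mouse spermatogonial stem cell line whose strain label is given as IRC mouse. By the methods of the study, KD cells carried lentiviral vector LV3 with a mixture of 3 short hairpin RNAs (shRNAs), and 5NC cells carried the empty lentiviral vector LV5, which has no shRNA. The other control, 3NC, carried LV3 with a control shRNA, and the overexpression group, labelled C18_5251OV and called OV here, carried lncRNA5251 in LV5. KD and 5NC therefore differed in the vector and in the presence of an shRNA as well as in the knockdown, and these differences cannot be told apart in this comparison. The study's texts differ on this construct, since a supplementary version of the methods heads the C18-4 transfection with another lncRNA, lncRNA8276, and counts fewer shRNAs in the mixture, while the labels give lncRNA5251 as the target. 5NC has the vector of OV, not that of KD, so most list counts against 3NC, and values of single genes where they matter most, are given beside those against 5NC. No source used here gives the age of a culture, the number of stable lines behind a group, or whether the 3 libraries of a group came from separate cultures, so that p-values measure only the spread between these libraries, which may be technical.

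The libraries had similar totals. Summed RPKM was 533099 to 539745 in 5NC and 550212 to 558477 in KD, and 11138 to 11237 genes per library reached 1 RPKM. Spearman correlation was 0.9933 to 0.998 between libraries of 1 group and 0.9598 to 0.9659 between KD and 5NC libraries. Read totals are not part of an RPKM table, and the relative depth of the libraries, read from the steps between the values of 80 low genes, lay between 0.926 and 1.01. The germ cell label was checked against 18 germ cell markers, of which 4 were tested. Uchl1 was at 60.06 to 93.12 RPKM over the 6 libraries, and Itga6, Etv5 and Id4 were between 0.83 and 7.76 RPKM. The defining markers Ddx4, Dazl, Gfra1, Ret, Zbtb16, Nanos2, Pou5f1, Kit and Stra8 were at or near 0, the highest single value being 0.17 RPKM for Gfra1. Wt1, a transcription factor of Sertoli cells, was at 49.87 to 53.06 RPKM, Vim at 522 to 564.25 and Col1a1 at 315.47 to 400.26, whereas Sox9 and Amh did not exceed 0.14. In bulk RNA, fewer cells of a type and less RNA per cell cannot be told apart.

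Short hairpin RNAs are cut by the cell into guide strands that lead the silencing machinery to transcripts with matching bases. Pairing at the seed of the guide, its bases 2 to 8, starts this recognition. Purb, the gene in which all 3 shRNA matches lie, encodes a single-stranded DNA and RNA binding protein that represses smooth muscle genes, and it has 2 relatives, Pura and Purg. The shRNAs are printed because they are the designed difference between KD and the vector-only control. The sequences come from the supplementary table of the study, are written 5′ to 3′ as the target reads, and have in capitals the target bases that pair with guide bases 2 to 8.
shRNA 1: gctgggacttaatGTCCTTCt
shRNA 2: gcatgggcaattcAAACAAAt
shRNA 3: gcttattatgcatCGTAAACc
control shRNA in 3NC: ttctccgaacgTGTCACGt
Searched against 141767 mouse transcripts, each of the 3 shRNAs matched 1 gene over its full length. All 3 matches were in the 3′ UTR of Purb on the minus strand of the GRCm38 build, at chr11:6468416-6468436 for shRNA 1, chr11:6467969-6467989 for shRNA 2 and chr11:6468248-6468268 for shRNA 3. The control shRNA matched no transcript. 5NC holds no shRNA at all, and seed matches in other transcripts were not searched. lncRNA5251 has no row of its own in the table and was not analysed here. The sequence of shRNA 3 also stands in the lncRNA5251 sequence printed in the supplement of the study. The lncRNA therefore shares at least this stretch with the 3′ UTR of Purb. Whether reads of lncRNA5251 were counted for Purb was not tested, so the Purb values may hold both.

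Purb was at 29.2, 32.1 and 30.7 RPKM in 5NC and at 8.93, 8.79 and 10.2 RPKM in KD. All 3 knockdown libraries lay below every 5NC library. The log2 fold change was -1.62 (SE 0.10, adjusted p = 1.65e-09, limma over all genes tested), and an exact permutation test of the 3 against 3 libraries gave a two-sided p of 0.1, the smallest this design allows. Log2 fold changes throughout are taken after adding 1 to each RPKM value, so that changes of low genes come out too small. The 2 relatives did not follow Purb. Pura was at 12.4 ± 0.525 RPKM in 5NC and 11.7 ± 1.05 in KD (SD, n = 3), a log2 difference of -0.09 with a 95% interval from -0.22 to 0.05 (adjusted p = 0.244). Without KD replicate 3 the difference of Pura was -0.15 and passed the test (adjusted p = 0.0424). Purg was higher in the knockdown, at 5.6, 5.44 and 4.89 RPKM against 3.79, 3.77 and 2.93 in 5NC, with no overlap and a log2 fold change of 0.49 (adjusted p = 0.000364).

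Differences between both groups were common and mostly small. At an adjusted p of at most 0.05, 34.3% of the genes tested were higher and 31.5% lower in KD, 65.7% in all, and the median log2 difference over all genes was 0.02. The 3 knockdown libraries lay outside the range of the 5NC libraries for 69.7% of genes, above it for 36.2% and below it for 33.5%. A gene was called where the adjusted p was at most 0.001 and the log2 fold change at least 1 in size, the limits that the study used with another test. By this rule 144 genes (1.27%) were called higher and 262 (2.31%) lower, 3.58% of those tested, and the libraries of both groups did not overlap for any of the 406. Falls were also the larger changes, with 14 falls and 2 rises of at least 2 on the log2 scale. The same rule called 57 genes higher (0.503%) and 115 lower (1.02%) in KD against 3NC, 1.52% in all, and 55.7% of genes reached an adjusted p of at most 0.05 there. Between the controls themselves it called 178 genes (1.57%) higher and 113 (0.998%) lower in 5NC, 2.57% in all. In OV against 5NC, which share LV5, limma called 0 genes, with 4230 genes at an unadjusted p under 0.05 and 2522 (22.3%) at an adjusted p of at most 0.05. These comparisons share libraries, and the difference between a gene's fold changes against 5NC and against 3NC is exactly its fold change in 5NC against 3NC, tested in the same fit. Counts of list members against 5NC are to be read beside the shares of all genes given above. Those against 3NC are to be read beside 32.2% higher and 23.4% lower at an adjusted p of at most 0.05.

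**Figure D1:**
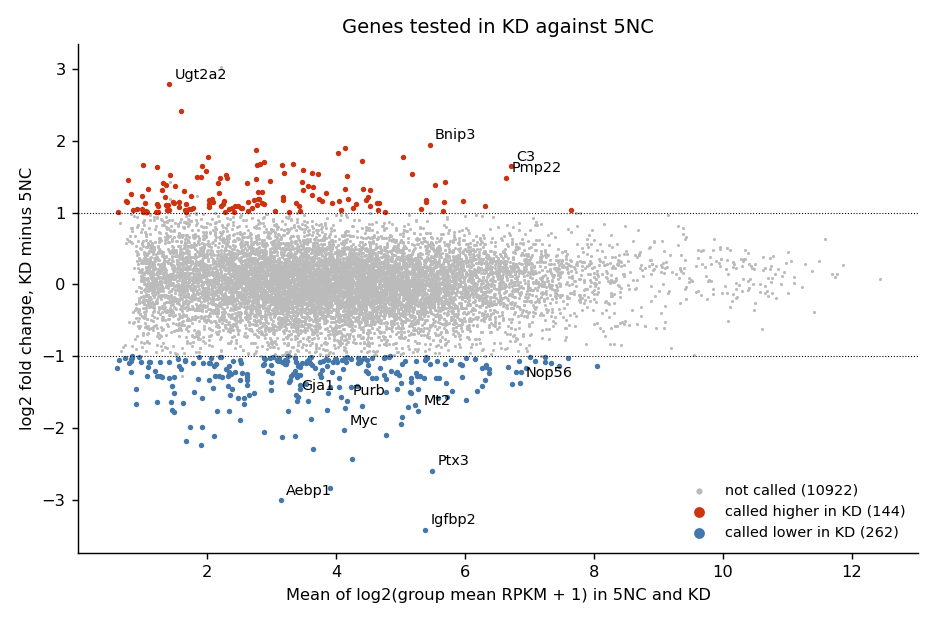
Each point is 1 of the 11328 genes tested, with the mean of log2(group mean RPKM + 1) of 5NC and KD on the x axis and its log2 fold change between KD and 5NC on the y axis. Coloured points are the 144 genes called higher and the 262 called lower, the dotted lines mark a log2 fold change of 1 in either direction, and the points below the lower line are the more numerous and reach further.

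The largest rises joined a drug-conjugating enzyme, hypoxia and glycolysis genes, a fatty acid desaturase and 1 subunit of the immunoproteasome. Ugt2a2, a UDP-glucuronosyltransferase that shares exons with Ugt2a1, was listed at 0, 0 and 0.03 RPKM in 5NC and was at 5.63, 5.57 and 6.8 RPKM in KD. The gene was listed at 0 in all 3 libraries of 3NC and of OV as well, so that only the knockdown libraries gave it more than 0.03 RPKM. Its log2 fold change against 5NC was 2.79 (SE 0.08, adjusted p = 1.25e-12), a size set largely by the pseudocount of 1. Ugt2a2 passed the filter through the 3 KD libraries alone, so it could enter only as a rise, and its adjusted p is no support for that rise. Reads of Ugt2a2 and Ugt2a1 may not have been separable in the counting.

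Bnip3, a mitochondrial protein that directs mitophagy, was at 20.9, 22.3 and 20.8 RPKM in 5NC and 83.3, 82.2 and 89.1 RPKM in KD, a log2 fold change of 1.94 (adjusted p = 2.46e-13). Aldoc, a glycolytic aldolase, rose from 8.01, 8 and 8.37 RPKM to 33.5, 34.4 and 31.7 RPKM (1.91, adjusted p = 1.9e-11). For both genes the knockdown libraries stood far above the 5NC libraries. Bnip3 was higher still in 3NC, at 114 ± 3.51 RPKM, so that it was lower in KD against that control, by a log2 value of -0.42. Scd1, the desaturase that makes oleate from stearate, was at 10.7 ± 0.16 RPKM in 5NC, 37.4 ± 0.339 in KD and 36.8 ± 0.558 in 3NC. Its fold change of 1.72 against 5NC (adjusted p = 2.47e-12) stood beside one of 0.02 against 3NC (adjusted p = 0.749). Tdrp, named for its part in testis development, rose in both comparisons, from 7.73 ± 0.281 RPKM in 5NC and 11.5 ± 0.309 in 3NC to 30 ± 1.93 in KD. Psmb9, a catalytic subunit of the immunoproteasome, was at 3.75, 5.65 and 4.65 RPKM in 5NC and 17.8, 16.8 and 16.3 RPKM in KD (1.67, adjusted p = 1.39e-09). The remaining leading rises were Ramp3, an accessory protein of the calcitonin receptor family, Fkbp1b, Gstt1, Rab40b and Stac2, with log2 fold changes of 1.67 to 1.77. Predicted genes made up 7 of the 144 rises, the largest being Gm16404, Gm10058 and 1700001C19Rik at 2.41, 1.66 and 1.5. Gm16404 and Gm10058 also passed the filter through the KD libraries alone.

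The largest falls were led by Igfbp2, Aebp1 and Cdsn. Igfbp2, which binds insulin-like growth factors outside the cell, was at 130, 138 and 136 RPKM in 5NC and 13.1, 12.1 and 10.1 RPKM in KD, the largest fall of any called gene (log2 -3.42, SE 0.10, adjusted p = 1.6e-12). Aebp1, a matrix-associated carboxypeptidase-like protein, fell from 23.8, 24.1 and 24 RPKM to 1.91, 2.63 and 1.86 RPKM (-3.0, adjusted p = 7.61e-13). Cdsn, the desmosomal glycoprotein corneodesmosin, fell from 37.5, 40.6 and 39.2 RPKM to 4.96, 4.61 and 4.34 RPKM (-2.83, adjusted p = 4.56e-14). No library of the 2 groups came near the other group for these genes. Ptx3, a secreted pentraxin of innate immunity, fell from 110 ± 2.51 to 17.3 ± 0.612 RPKM (-2.59, adjusted p = 2.23e-14). Sema3c, a secreted guidance cue, fell from 43.3 ± 0.416 to 7.22 ± 0.295 RPKM (-2.43, adjusted p = 1.72e-12). Fgf5, a fibroblast growth factor, was at 5.75, 6.3 and 5.43 RPKM in 5NC and at 0.44, 0.56 and 0.51 RPKM in KD (-2.18, adjusted p = 4.7e-12). Fgf5 passed the filter through the 5NC libraries alone. These falls had unequal sizes against 3NC. Cdsn, Ptx3, Sema3c and Fgf5 were also called lower against 3NC, with log2 fold changes of -1.08, -1.44, -1.38 and -1.05, and Aebp1 reached -0.95. Igfbp2 was at 11.1 ± 1.81 RPKM in 3NC, a difference of 0.09 from KD (95% interval -0.14 to 0.31, adjusted p = 0.499). The other leading falls were Igfbp4, the hormone Stc2, the elastic fibre protein Fbln5, the transcription factor Maf, the claudin Cldn15 and the matricellular protein Wisp1, between -2.30 and -2.09. Fbln5 and Cldn15 lay near their 3NC levels, with differences of 0.03 and 0.18 that did not pass the test. Predicted genes made up 7 of the 262 falls, among them C030006K11Rik, 2410131K14Rik and Gm46403 at -1.25, -1.25 and -1.11.

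**Figure D2:**
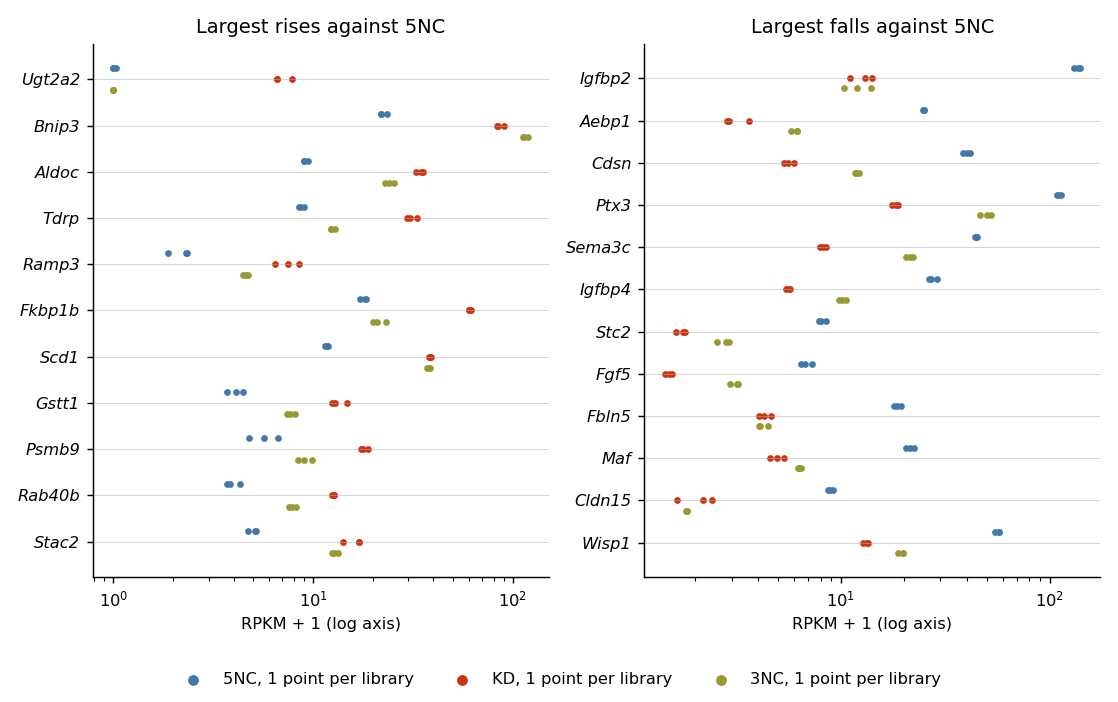
RPKM of 11 leading rises and the 12 largest falls among called genes that are not predicted ones, on a log-scaled axis of RPKM + 1, with 1 point for each library of 5NC, KD and 3NC. The KD points are separated from the 5NC points in every row, as the naming rule required. The 3NC points lie beside KD for genes such as Igfbp2, Fbln5 and Scd1 and beside 5NC for Fkbp1b.

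Past the same limits against both controls were 20 rises (0.177% of the genes tested) and 40 falls (0.353%). Predicted genes aside, the 8 of each with the largest smaller-of-both fold change, among those whose KD libraries overlapped neither control, are described here. Ugt2a2 led the rises. Fkbp1b, a regulator of calcium release channels, was at 17.4, 16.2 and 17.1 RPKM in 5NC, 18.9, 19.9 and 22.2 RPKM in 3NC and 59.5, 59.3 and 60.7 RPKM in KD. Myl9, the regulatory light chain of smooth muscle and nonmuscle myosin, was at 6.27 ± 0.563 RPKM in 5NC, 6.46 in 3NC and 20.3 ± 1.33 in KD. Its log2 fold changes were 1.55 against 5NC (adjusted p = 1.5e-09) and 1.51 against 3NC (adjusted p = 3.74e-09), and the controls differed by -0.04 (adjusted p = 0.759). Ly6f, a small cell surface protein of a family with near-identical copies, stood at 9.68 ± 0.82 RPKM in 5NC and 29.4 ± 2.55 in KD. Tdrp, Pmp22, a tetraspan membrane protein of myelin, Cmbl, a cytosolic hydrolase, and Defb25, a beta-defensin, were the others of these 8 rises, with log2 fold changes of 1.43 to 1.83 against 5NC and 1.23 to 1.31 against 3NC.

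The falls past both controls were headed by Ccl5, Purb and Gja1. Ccl5, a chemokine that attracts T cells and monocytes, was at 33.6, 39.1 and 38.9 RPKM in 5NC and 11.4, 9.2 and 11.7 RPKM in KD, a log2 fold change of -1.70 (adjusted p = 3.88e-10) beside -1.79 against 3NC. Gja1, the gap junction protein connexin 43, was at 16.7, 16.5 and 16.9 RPKM in 5NC and 4.91, 5.06 and 5.29 RPKM in KD. The fold change of Gja1 was -1.54 against 5NC (adjusted p = 8.9e-12) and -1.81 against 3NC (adjusted p = 8.88e-12). Myc, the growth-promoting transcription factor, was at 35, 34.4 and 33.1 RPKM in 5NC and 8.06, 7.5 and 7.33 RPKM in KD, with fold changes of -2.03 (adjusted p = 9.39e-13) and -1.5 (adjusted p = 3.6e-11). Every knockdown library was below every library of both controls for these genes, as the rule that named them required. Rrp12, an export factor of ribosomal subunits, Nop2, an rRNA methyltransferase, Oasl1, an antiviral protein, and Ptx3 were the others of these 8 falls, at -1.46 to -2.59 against 5NC.

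**Figure D3:**
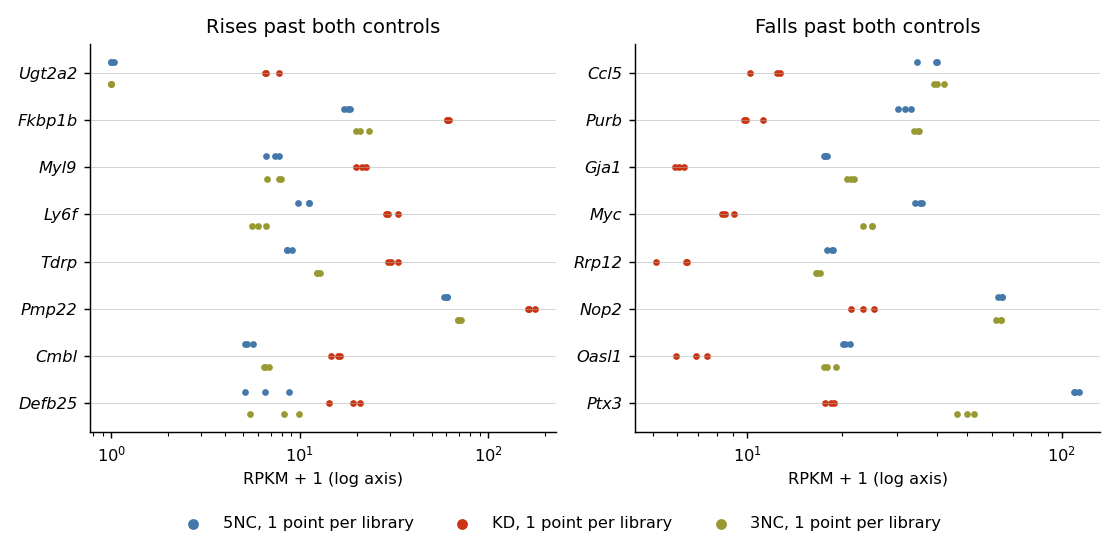
RPKM in single libraries of 5NC, KD and 3NC, on a log-scaled axis of RPKM + 1, of the 8 rises and 8 falls with the largest smaller-of-both fold changes among genes called against 5NC and against 3NC in the same direction. In each row the 3 KD points stand on 1 side of all 6 control points, as the naming rule required. The Ugt2a2 controls are at or near 0.

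Ribosome biogenesis genes, which make rRNA and assemble ribosomal subunits in the nucleolus, fell together in the knockdown. Of 68 members tested 59 were lower and 2 higher at an adjusted p of at most 0.05, where 31.5% and 34.3% of all genes were. Their median log2 fold change was -0.62 against 0.02 over all genes. Against 3NC 63 were lower and 1 higher, where 23.4% and 32.2% of all genes were, with a median of -0.66. Nop2 was at 63.3, 61.8 and 63.7 RPKM in 5NC and 22.4, 24.3 and 20.4 RPKM in KD, a fold change of -1.46 (adjusted p = 2.07e-11). Rrp12 went from 17.4 ± 0.445 to 4.98 ± 0.737 RPKM (-1.63, adjusted p = 9.4e-11). Nop56, a core protein of the particles that methylate rRNA, went from 186 ± 2.77 to 71.4 ± 2.15 RPKM (-1.37, adjusted p = 4.06e-12). The 3NC levels of these genes were 62.3, 15.7 and 140 RPKM. In all 18 members were called lower, where 2.31% of all genes were, among them Rrs1, Wdr43, Noc3l, Grwd1 and Mybbp1a at -1.41 to -1.16. The 2 members that rose, Imp3 at 0.56 and Nop10 at 0.53, were named after their values were seen. Both encode proteins of small nucleolar ribonucleoprotein particles.

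Many genes of this group are textbook targets of Myc, which binds the E-box CACGTG as a dimer with Max. Among 12 tested genes of the Myc network, 5 were lower, Myc, Mycn, Mnt and Max by the most, and Mxi1, which opposes Myc at E-boxes, was higher. Mycn was at 2.29 ± 0.245 RPKM in 5NC and 0.873 ± 0.169 in KD (-0.81), close to its 3NC level of 0.923. Mxi1 rose from 16 ± 0.708 to 29.3 ± 0.431 RPKM (0.83, adjusted p = 1.57e-09). Promoters, here 250 bases before to 50 after each RefSeq gene start in GRCm38.p6, were searched on both strands. CACGTG stood in a promoter of 12 of the 58 biogenesis genes with a promoter in the table (20.7%). It stood in 12% of the 9119 tested genes with a promoter, and in 8.09% of all 27025 genes there. The motif was as frequent in glycolysis genes, 5 of 24 (20.8%), most of which were higher against 5NC. In hypoxia genes it was found in 3 of 25. Its share in biogenesis genes was therefore not peculiar to a list that fell, and a part of Myc in these falls was not tested. The stretch of Nop2 is printed as an example of the motif, in capitals, on the plus strand at chr6:125131812-125131840, 60 bases before the gene start.
Nop2 promoter: tgtccctggatCACGTGtgttccggtgcc

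Cytosolic ribosomal proteins themselves did not fall with the factors that assemble them. Of 77 tested 43 were higher and 9 lower against 5NC, with a median of 0.19, but 8 were higher and 20 lower against 3NC, with a median of -0.02. Under quantile normalization the median against 5NC was 0.07 and 20 were lower. Rpl38 was the largest rise, at 2536, 2314 and 2553 RPKM in 5NC and 3470, 3904 and 4174 RPKM in KD (0.64, adjusted p = 1.95e-06). Rplp0 went the other way, from 1945 ± 64 to 1262 ± 35.6 RPKM (-0.62, adjusted p = 7.37e-08). Rpl29 was lower at -0.68, and its processed copies in the genome make its counting uncertain. Subunits of oxidative phosphorylation, the mitochondrial respiratory chain and ATP synthase, were higher in 50 of 75 and lower in 11, with a median of 0.26, and in 40 and 1 against 3NC with a median of 0.16. Without KD replicate 3, or without 5NC replicate 1, 7 subunits were lower against 5NC. No subunit reached the call limits. Uqcrh, a hinge protein of complex III, had the largest rise, from 148 ± 2.55 to 296 ± 12 RPKM (0.99). Both groups have short transcripts, with median lengths of 1094 and 1141 bases against 3416 for all genes tested. The rank correlation between length and fold change over the 11188 genes with a length was -0.00467, a description across genes. When genes were divided into 4 equal classes by length, the medians from the shortest to the longest class were 0.03, 0.01, 0.02 and 0.03.

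Glycolysis and hypoxia genes were higher in the knockdown than in 5NC but not than in 3NC. Hypoxia-inducible factors raise glycolytic enzymes and mitophagy genes when oxygen is low and bind sites with the core ACGTG. Of 24 glycolysis genes 21 were higher and 2 lower against 5NC, with a median of 0.59, whereas 5 were higher and 11 lower against 3NC, with a median of -0.12. Slc16a3, the lactate exporter, was at 42.1, 40.9 and 40 RPKM in 5NC and 98.2, 99.4 and 81.1 RPKM in KD (1.16, adjusted p = 6.46e-09), but at 139 RPKM in 3NC. Pfkp, which catalyses the committed step of glycolysis, went from 27.9 ± 0.232 to 74.4 ± 0.811 RPKM (1.38, adjusted p = 9.39e-13) and was at 67.3 in 3NC. Ldha, which turns pyruvate into lactate, was at 392, 409 and 414 RPKM in 5NC and 777, 792 and 805 RPKM in KD, just under the call limit at 0.96 (adjusted p = 1.27e-10). Its 3NC level was 978 RPKM. Hk2, the inducible hexokinase, was the member that fell most, from 6.4 ± 0.23 to 4.2 ± 0.467 RPKM (-0.51), and by more against 3NC (-1.32).

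Of 30 hypoxia genes, some of them glycolytic, 24 were higher and 4 lower against 5NC, with a median of 0.42, against 6 and 19 with a median of -0.34 for 3NC. Bnip3 and Selenbp1 were called higher, Selenbp1 at 5 ± 0.286 RPKM in 5NC and 12.6 ± 0.469 in KD. Stc2 was called lower at -2.24, and Vegfa, the angiogenic growth factor, and Ddit4, an inhibitor of mTORC1, were lower at -0.68 and -0.84. For Bnip3, Slc16a3 and Ldha, 5NC was below 3NC by log2 values of -2.36, -1.74 and -1.27, larger than any difference between KD and 3NC in these 3 genes. ACGTG, which also lies inside CACGTG, was found in a promoter of 16 of 24 glycolysis genes (66.7%) and 19 of 25 hypoxia genes (76.0%), against 29.9% of tested genes and 21.8% of all genes. Slc16a3 is shown with 1 match in capitals, 27 bases before its start on the plus strand, at chr11:120949029-120949057, and the stretch ends in another match, left in lower case.
Slc16a3 promoter: aggcagcggtgACGTGcgcgggggacgtg

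Cholesterol and fatty acid synthesis genes, targets of the sterol-regulated SREBP factors, followed the same pattern. Of 36 tested 28 were higher and 3 lower against 5NC, with a median of 0.50, beside 11 and 9 with a median of 0.04 against 3NC. Among those called higher were Scd1, Stard4, Fdps and Elovl6. Fdps, which makes farnesyl diphosphate, was at 37.1, 32.1 and 31.3 RPKM in 5NC and 75.2, 77.8 and 71.9 RPKM in KD (1.14, adjusted p = 3.42e-10), with 69.9 in 3NC. Mvk, mevalonate kinase, was lower, from 11.1 ± 0.485 to 7.04 ± 0.97 RPKM (-0.59, adjusted p = 2.22e-05).

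Most genes of the ATF4 and unfolded protein response were lower in the knockdown. ATF4 is translated when amino acids are short or proteins misfold and switches on amino acid transport and synthesis. Of 39 tested 31 were lower and 6 higher against 5NC, with a median of -0.84, and 29 were lower and 3 higher against 3NC, with a median of -0.23. Atf4 itself was at 472, 442 and 455 RPKM in 5NC and 245, 259 and 259 RPKM in KD (-0.84, adjusted p = 9e-10), and at 353 in 3NC. Fgf21, a stress hormone, was at 59.9, 62.1 and 63.5 RPKM in 5NC and 16.9, 14.4 and 14.8 RPKM in KD (-1.94, adjusted p = 2.41e-12). Its 3NC level was 9.08 RPKM, so that it was higher in KD than in 3NC by 0.70. Slc7a11, the cystine importer, went from 8.64 ± 0.429 to 2.21 ± 0.103 RPKM (-1.58), and was lower against 3NC too (-1.15). Cebpb, a bZIP transcription factor, fell by 1.71 on the log2 scale, with 1 5NC library standing apart at 80.6 RPKM beside 53.5 and 51.4. Trib3, Cth, Atf5 and Aldh1l2 were among the 14 called lower, at -1.34 to -1.18, where 2.31% of all genes were called lower. The 6 that rose were the chaperones and folding factors Hspa5, Manf, Creld2, Pdia4, Edem1 and Hyou1, which are named after their values were seen. Hspa5, the main chaperone of the reticulum, was at 499, 523 and 503 RPKM in 5NC and 853, 859 and 916 RPKM in KD (0.78, adjusted p = 2.31e-09), but at 1011 RPKM in 3NC.

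The ATF4 element TGATGNAA, searched on both strands, stands in the promoters of 3 genes called lower that are printed as examples. The motif was found in 10 of the 31 members with a promoter and in 2.48% of tested genes. Since fewer than 80% of the 39 members had a promoter, the comparison of shares is void. Capitals mark the element or its reverse complement in Fgf21 at chr7:45615612-45615640 on the minus strand, in Slc7a11 at chr3:50443662-50443690 on the minus strand and in Chac1 at chr2:119351038-119351066 on the plus strand.
Fgf21 promoter: agacccccccaTTGCATCAtccgtccagg
Slc7a11 promoter: tctcatgtggcTGATGCAAacctggagaa
Chac1 promoter: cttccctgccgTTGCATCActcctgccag
Chac1, which degrades glutathione, was at 117 ± 3.54 RPKM in 5NC, 53.5 ± 7.55 in KD and 40.6 in 3NC.

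**Figure D4:**
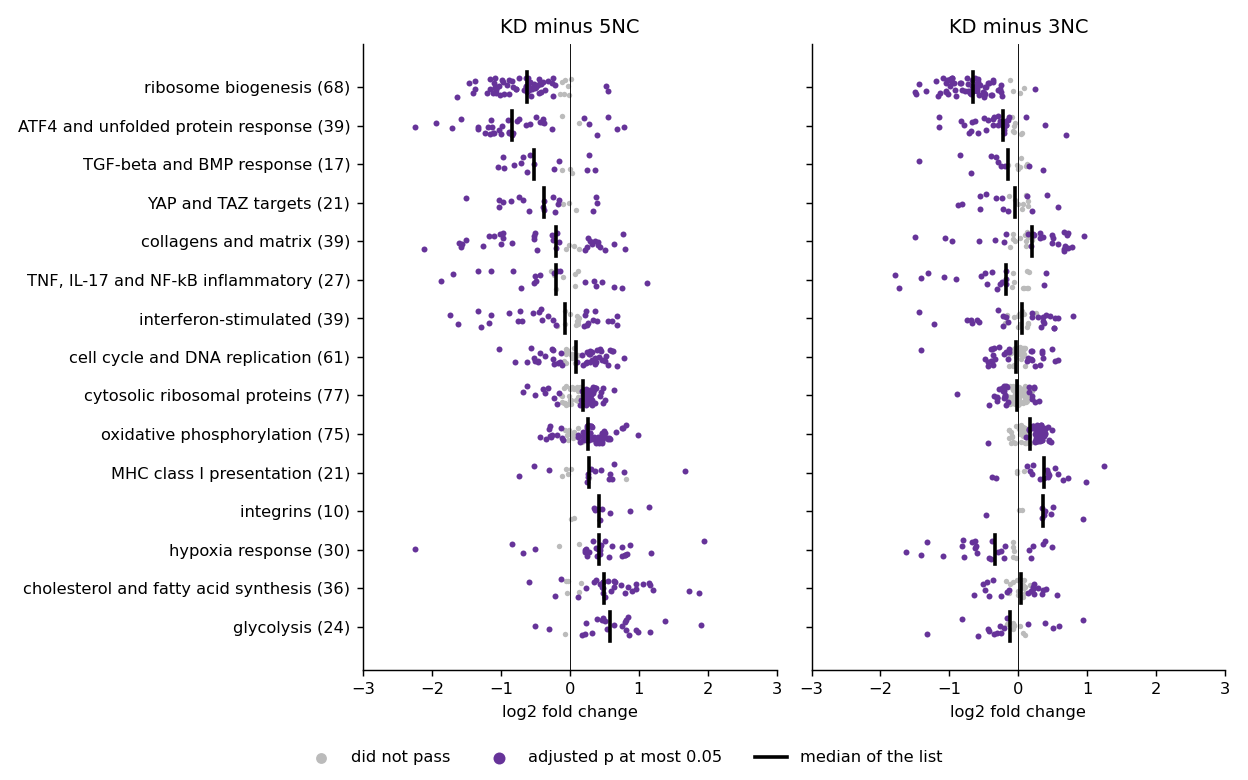
Log2 fold changes of the members of gene lists in KD against 5NC (left) and against 3NC (right), with 1 point for each tested gene, coloured where the adjusted p is at most 0.05 and marked with a line at the list median. Ribosome biogenesis lies left of 0 in both panels, whereas glycolysis, hypoxia and cholesterol genes lie right of 0 against 5NC and around or left of 0 against 3NC.

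NRF2 targets and glutathione enzymes, which guard against oxidants and electrophiles, were mixed. Of 39 tested 20 were higher and 11 lower against 5NC, with a median of 0.14, whereas 11 were higher and 21 lower against 3NC, with a median of -0.34. Hmox1, heme oxygenase 1, was at 98, 92.1 and 98.7 RPKM in 5NC and 40.2, 38.1 and 37.7 RPKM in KD (-1.29, adjusted p = 1.62e-11), and at 110 in 3NC. Gstt1 rose from 3.46, 2.69 and 3.12 RPKM to 11.4, 11.9 and 13.8 RPKM (1.71, adjusted p = 9.21e-10), and Gstm6 rose by 1.14. Glutathione transferases of the alpha and mu classes have near-identical copies, so their separate values are uncertain. Metallothioneins, small proteins that bind zinc and copper, fell. Mt2 was at 74.7, 69.6 and 67.2 RPKM in 5NC and 18.5, 22 and 19.8 RPKM in KD (-1.76, adjusted p = 3.58e-11), and Mt1 went from 213 ± 11 to 106 ± 0.777 RPKM (-1.01, adjusted p = 9.74e-10). Both were lower against 3NC too, at -1.25 and -0.57. Slc30a1, the zinc exporter that responds to the same metal sensor, was lower at -0.91, and of the 12 genes in the zinc list 6 were lower and 1 higher, with 0 higher when KD replicate 1 or 3 or 5NC replicate 1 or 3 was left out or under the replicate block in a fit of 6 libraries. Against 3NC the counts were again 6 and 1. Of 10 xenobiotic and glucuronide enzymes 4 were higher and 4 lower, and 3 and 4 against 3NC, and Ugt2a2 was the only call against 5NC.

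Growth factor genes are read against the 34.3% of all genes that were higher and the 31.5% that were lower in KD than in 5NC. Of 13 genes of the insulin-like growth factor system 8 were higher and 4 lower, with a median of 0.32, and 7 and 2 against 3NC with a median of 0.14. The receptor Igf1r was at 6.83 ± 0.221 RPKM in 5NC and 8.75 ± 0.179 in KD (0.32, adjusted p = 0.000361), and Igf2bp3, an RNA-binding protein of Igf2 mRNA, went from 2.84 ± 0.338 to 11.2 ± 0.727 RPKM (1.66, adjusted p = 1.24e-10). Igfbp2 and Igfbp4 were the falls beside the adaptors Irs1 and Irs2. Among 7 fibroblast growth factor ligands and receptors the ligands Fgf5, Fgf21 and Fgf18 were lower and 3 others higher, Fgf11 by the most at 0.64. Against 3NC 4 of the 7 were higher and 1 lower, and Fgf18, at -0.56 against 5NC, was called higher there at 1.01 (adjusted p = 5.54e-07). Ligands and receptors of the epidermal growth factor family were higher in 8 of 11 cases and lower in 1, with a median of 0.48, whereas 4 were higher and 6 lower against 3NC, with a median of -0.39. Egfr was at 7.91 ± 0.557 RPKM in 5NC and 11.4 ± 0.426 in KD (0.48, adjusted p = 0.000166), Areg and Tgfa were higher at 0.79 and 0.85, although Areg was called lower against 3NC at -1.03, and Nrg1 was called lower, from 9.61 ± 0.561 to 2.33 ± 0.18 RPKM (-1.67, adjusted p = 5.39e-10).

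Genes downstream of these receptors through ERK had unlike values against the 2 controls. Of 16 ERK output genes 3 were higher and 8 lower against 5NC, with a median of -0.24, and 1 was higher and 14 lower against 3NC, with a median of -1.23. Etv4, an ETS transcription factor, was at 3.4, 3.73 and 3.63 RPKM in 5NC, 10.5, 10.1 and 8.07 RPKM in KD and 31.3 RPKM in 3NC. It was therefore called higher against 5NC (1.19, adjusted p = 1.17e-08) and lower against 3NC (-1.62, adjusted p = 8.78e-10). Fosl1, an AP-1 subunit, was low in both groups, at 1.72 ± 0.223 and 0.983 ± 0.409 RPKM (-0.47, adjusted p = 0.00329), beside 31 RPKM in 3NC. Fos was the only AP-1 subunit of 9 that was higher, from 6.36, 7.19 and 6.71 RPKM to 20.1, 21.6 and 22.9 RPKM (1.54, adjusted p = 3.12e-11), and it was called higher against 3NC as well (1.08). Fosl2, Atf3, Jund and Jun were lower at -1.22 to -0.67.

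Transforming growth factor beta and bone morphogenetic protein genes were lower in 11 of 17 cases and higher in 3, with a median of -0.52, beside 8 and 2 with a median of -0.14 against 3NC. The ligands Bmp4, Tgfb2 and Tgfb3 fell at -1.05, -0.97 and -0.71, and the BMP target Id1 at -0.95. Bmp4 was at 20 ± 1.96 RPKM in 5NC, 9.17 ± 0.705 in KD and 8.89 in 3NC. Targets of YAP and TAZ, the effectors of the Hippo pathway, were lower in 15 of 21 cases and higher in 3, with a median of -0.37. F3, tissue factor, was at 24.9, 23.9 and 22.8 RPKM in 5NC and 7.27, 8.17 and 7.81 RPKM in KD (-1.51, adjusted p = 5.26e-11), and Ctgf was lower at -0.73. F3 and Ctgf were also lower against 3NC, at -0.82 and -0.88, where the list counted 4 higher and 9 lower with a median of -0.06.

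Collagens and other matrix genes were more often lower than higher in KD against 5NC, and the reverse held against 3NC. Of 39 collagens and matrix genes 22 were lower and 13 higher, with 9 called lower and a median of -0.20. Over all genes 31.5% were lower, 34.3% higher and 2.31% called lower. The share of matrix genes that were higher was near that of all genes. Dcn, the small proteoglycan decorin, was at 112, 115 and 109 RPKM in 5NC and 35.9, 34.4 and 38.1 RPKM in KD (-1.61, adjusted p = 1.25e-12). Col6a2 went from 89.6 ± 0.845 to 29.5 ± 2.95 RPKM (-1.57, adjusted p = 5.93e-11), and Lox, which cross-links collagen, from 59.7 ± 2.01 to 20.3 ± 1.33 RPKM (-1.51, adjusted p = 2.65e-11). Against 3NC the matrix list counted 20 higher and 7 lower with a median of 0.19. Dcn was higher than in 3NC by 0.71, Col6a2 differed by -0.05 (adjusted p = 0.584), and Lox was lower by -0.97. Of 20 matrix proteases and inhibitors 6 were higher and 8 lower, and 11 and 5 against 3NC. Timp3, an inhibitor of metalloproteases, fell from 125 ± 3.21 to 46.2 ± 1.55 RPKM (-1.41) and was at 32.5 in 3NC.

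Integrins, the cell surface receptors for the matrix, were mostly higher. Of 10 tested 8 were higher and none lower against 5NC, with a median of 0.42, and 7 were higher and 1 lower against 3NC, with a median of 0.36. Itgb3 was at 3.06, 3.26 and 3.15 RPKM in 5NC and 8.35, 8.11 and 8.12 RPKM in KD (1.15, adjusted p = 2.85e-09), with 3.79 in 3NC. Itgb1, the shared beta chain, went from 288, 296 and 289 RPKM to 379, 364 and 416 RPKM (0.41, adjusted p = 8.68e-06). Itga6, with which Itgb1 forms a laminin receptor used to enrich spermatogonial stem cells, rose from 4.51 ± 0.217 to 7.26 ± 0.527 RPKM (0.58, adjusted p = 7.93e-05). Of 14 laminins and basement membrane genes 7 were higher and 5 lower, Col4a2 and Col4a1 rising at 0.83 and 0.72 and Col4a4 falling at -1.09. Against 3NC 12 of them were higher and 0 lower, with a median of 0.39, and Col4a4 differed by 0.03 (adjusted p = 0.799).

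At cell to cell junctions 5 of 29 genes were called lower and none higher, where 2.31% of all genes were called lower. Of the 29, 11 rose and 9 fell at an adjusted p of at most 0.05, shares near those of all genes, 34.3% and 31.5%. Against 3NC none of the 29 was called, and 16 rose and 5 fell, with a median of 0.18 beside 0.06 against 5NC. Cdh2, N-cadherin, was at 91, 92.1 and 91.8 RPKM in 5NC and 31.9, 31.6 and 33 RPKM in KD (-1.48, adjusted p = 5.48e-12), and at 51.7 in 3NC. Cdh3, P-cadherin, went from 65.8 ± 0.453 to 19.8 ± 0.406 RPKM (-1.69, adjusted p = 7.61e-13), but its 3NC level of 19.5 RPKM lay beside the knockdown (difference 0.02, adjusted p = 0.789). Cldn15, Cgn, a tight junction plaque protein, and Perp, of desmosomes, were the other calls, and against 3NC their differences were 0.18, 0.18 and -0.76. Pkp2, Evpl and Cldnd1 were higher, at 0.94, 0.98 and 0.74. Among 5 gap junction genes Gja1 was called lower and Gjc1 was higher at 0.33. Of 17 cell adhesion molecules 9 were higher and 3 lower, with a median of 0.33, and 7 and 5 against 3NC with a median of 0.07.

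Of 11 genes whose proteins the study stained in these cells, 5 reached the filter, and Gja1 was the only call. F11r, the junctional adhesion molecule JAM-A, was at 94, 90.2 and 88.8 RPKM in 5NC and 76.1, 74.9 and 76 RPKM in KD. Its fold change was -0.26 against 5NC (adjusted p = 2.87e-05) and 0.54 against 3NC (adjusted p = 2.97e-08), since 3NC stood at 51.8 RPKM. Vcam1 was at 3.67 ± 0.159 RPKM in 5NC and 3.91 ± 0.287 in KD, a difference of 0.07 with a 95% interval from -0.07 to 0.21. Tjp1, the tight junction scaffold ZO-1, differed by 0.01 (interval -0.19 to 0.20) and Ctnnd1, p120 catenin, by -0.02 (interval -0.14 to 0.10), and both signs turned under some settings. Gja4, Ocln, Dsg2, Cldn11, Cdh1 and Cadm2 had no library above 0.45 RPKM and were not tested. Protein levels were not part of these files.

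**Figure D5:**
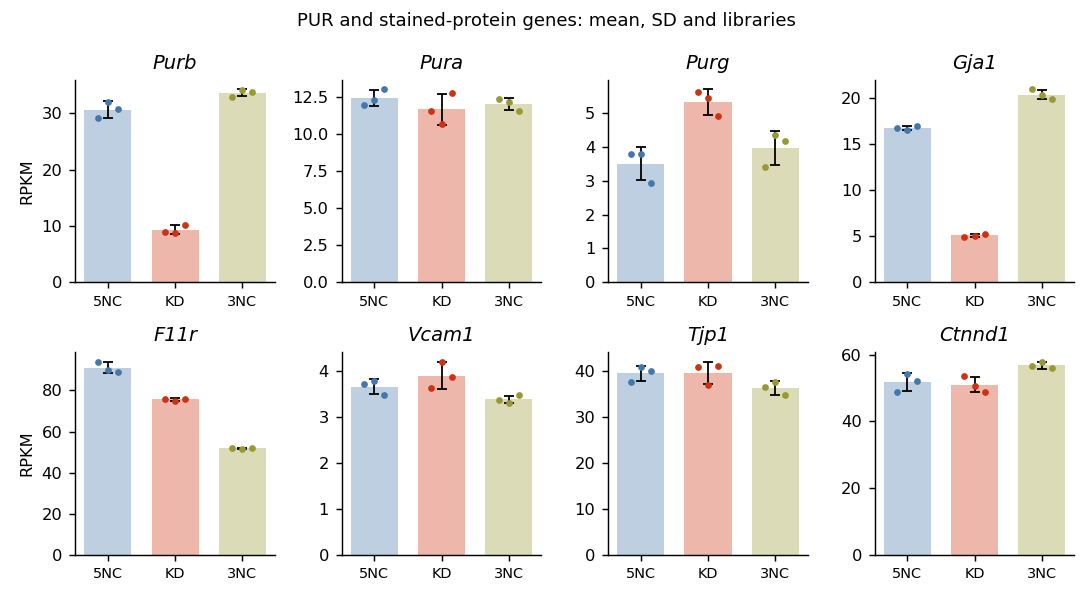
RPKM in every library of 5NC, KD and 3NC for Purb, Pura and Purg and for the 5 tested genes of stained proteins, with bars for group means, error bars for the SD of 3 libraries and points for libraries, on linear axes from 0. Purb and Gja1 are low in the 3 knockdown libraries alone, Purg is highest there, and Pura, Tjp1, Ctnnd1 and Vcam1 overlap between KD and 5NC.

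Contractile genes moved in both directions. Of 34 actomyosin and smooth muscle genes 15 were higher and 7 lower, with a median of 0.08, and 16 and 7 against 3NC with a median of 0.14. Myl9 and Cnn1, calponin 1, were called higher, Cnn1 at 2.83 ± 0.367 RPKM in 5NC and 7.14 ± 0.346 in KD (1.09, adjusted p = 2.54e-08). Des was higher at 0.99, and Zyx, a focal adhesion protein, was called lower, from 178 ± 4.65 to 76.1 ± 8.36 RPKM (-1.22, adjusted p = 1.69e-09). Acta2, the smooth muscle actin gene that PURB is known to repress, was at -0.18 against 5NC, at the edge of the test (adjusted p = 0.0494), and higher at 1.04 against 3NC. The difference of Acta2 against 5NC did not pass with a pseudocount of 0.1, with no filter, under quantile normalization (adjusted p = 0.111), in a fit of 6 libraries or under either replicate block (adjusted p = 0.0627 and 0.0586). Nor did it pass without KD replicate 1 (-0.17), KD replicate 3 (-0.13), 5NC replicate 2 (-0.18) or 5NC replicate 3 (-0.12). Of 8 keratins and epithelial genes 3 were higher, Krt18 at 0.68, and 2 lower, and 4 and 2 against 3NC.

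Inflammatory genes were more often lower than higher in KD, and interferon-stimulated genes were mixed. Of 27 TNF, IL-17 and NF-kB genes 13 were lower and 7 higher, with a median of -0.20, and 16 and 2 against 3NC with a median of -0.18. Ccl7, a monocyte chemokine, was at 22.6, 22.1 and 22.4 RPKM in 5NC and 5.15, 5.45 and 5.5 RPKM in KD (-1.87, adjusted p = 4.68e-12). Lif, a cytokine of stem cell self-renewal, went from 8.76 ± 0.599 to 2.9 ± 0.331 RPKM (-1.33, adjusted p = 4.94e-10). Both fell against 3NC too, at -1.31 and -1.41. Csf1 was called lower at -1.15 against 5NC and differed by -0.10 from 3NC, and Tnfaip6 was called higher at 1.12. Of 39 interferon-stimulated genes 17 were lower and 12 higher, with a median of -0.07 and 6 called lower, beside 12 lower and 14 higher against 3NC with a median of 0.05. Over all genes 31.5% were lower, 34.3% higher and 2.31% called lower against 5NC, and 23.4% were lower and 32.2% higher against 3NC. Ifit1 was at 4.12, 3.79 and 4.1 RPKM in 5NC and 0.45, 0.62 and 0.42 RPKM in KD (-1.74), and Oasl1, Oasl2, Cxcl10, Ifi44 and Rsad2 fell at -1.62 to -1.15.

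MHC class I presentation genes were higher in 12 of 21 cases and lower in 3, with a median of 0.28, and in 16 and 2 against 3NC with a median of 0.36. Besides Psmb9, B2m, the light chain of all class I molecules, rose from 357, 356 and 362 RPKM to 492, 465 and 518 RPKM. Tap1, the peptide transporter, was higher at 0.62 and Tapbpl lower at -0.73. H2 genes have near-identical copies, and their separate values are uncertain. Of 18 complement and coagulation genes 7 were higher and 7 lower, and 11 and 4 against 3NC. C3, the central complement component, was at 57.9, 59.7 and 57 RPKM in 5NC and 186, 191 and 177 RPKM in KD (1.65, adjusted p = 8.74e-13), and at 108 in 3NC. Bdkrb2, the bradykinin receptor, was called higher at 1.33.

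Cell cycle genes had a median of 0.09 over 61 members, 29 higher and 18 lower, and 14 were higher and 18 lower against 3NC, with a median of -0.04. Birc5, Ccnb2 and Bub1b, which act in mitosis, were higher at 0.69, 0.63 and 0.61 against 5NC and at 0.24, 0.54 and 0.02 against 3NC, where Bub1b did not pass the test. Cdk4, a kinase of G1, was the only call, from 284, 271 and 271 RPKM to 132, 139 and 134 RPKM (-1.02, adjusted p = 1.43e-10), and Cdk6 was lower at -0.80. Of 29 p53 targets and apoptosis genes 10 were higher and 13 lower, with a median of 0.00, beside 5 and 19 with a median of -0.37 against 3NC. Gdf15, a stress cytokine, was at 81.7 ± 2.21 RPKM in 5NC and 26.8 ± 2.63 in KD (-1.58, adjusted p = 5.17e-11), and Sesn2 and Perp were also called lower. Trp53 itself was at 134 ± 3.83 and 71.6 ± 5.77 RPKM (-0.90, adjusted p = 2.54e-08). Bmf and Bcl2l11, pro-apoptotic members of the BCL2 family, rose at 0.95 and 0.73.

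Among markers of testis cell types, 3 of the 4 germ cell markers tested were lower and Itga6 was higher. The fall of Id4, -0.24, did not pass the test when KD replicate 1 or 2 or 5NC replicate 1 or 2 was left out, or under the replicate block in a fit of 6 libraries (adjusted p = 0.0563). Uchl1, a deubiquitinase abundant in spermatogonia, was at 93.1, 91.1 and 89.2 RPKM in 5NC and 66.6, 68.6 and 60.1 RPKM in KD (-0.48, adjusted p = 1.06e-05). Of 5 Sertoli markers tested 1 was higher and 2 lower, beside 1 and 0 against 3NC. Wt1 differed from 5NC by -0.05 (adjusted p = 0.293). Of 10 peritubular or mesenchymal markers 3 were higher and 3 lower, near the shares of all genes, 34.3% and 31.5%. Against 3NC 8 were higher and 0 lower, where 32.2% and 23.4% of all genes were. Against 5NC Dcn was the largest fall and Cnn1 the largest rise, while Vim and Col1a1 differed by 0.01 and -0.06 and did not pass the test. Under quantile normalization Vim was lower, at -0.13 (adjusted p = 0.00915), and without KD replicate 3 the difference of Col1a1 was 0.04. Of the Leydig, macrophage and endothelial markers only Star and Cd68 passed the filter, at 1.06 to 1.27 and 2 to 2.84 RPKM. Insl3, a Leydig cell hormone, was listed at 0 in 5NC, averaged 0.56 RPKM in KD and reached 1.16 in 1 library, and Lyz2 and Kdr did not exceed 0.63 and 0.6. Pecam1 and Cdh5 did not exceed 0.29 RPKM, Csf1r and Ptprc 0.05, and Cyp11a1 and Cyp17a1 were listed at 0 in all 6 libraries. Of 10 retinoic acid genes 2 were higher, Rdh11 and Rarres2 at 0.68 each, and 5 lower, or 3 with no filter on low values or without KD replicate 3, 5NC replicate 1 or 5NC replicate 3, beside 2 and 0 against 3NC. The 3 tested genes of the Ly6 list were higher, and of 5 TAM receptors and their ligands Gas6, Tyro3 and Mertk were higher at 0.29 to 0.49, Gas6 standing at 97.8 ± 8.35 RPKM in KD, 79.5 ± 2.09 in 5NC and 29.7 in 3NC.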

How the data were processed

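The authors enriched poly(A) RNA with oligo(dT), sequenced it on an Illumina instrument, aligned reads with SOAPaligner and deposited RPKM values per gene; the build and gene set are not given in the sources used here. The labels placed 3 libraries in each of 4 groups, no 2 libraries were identical, and the table held 0 columns of other samples. Genes at 1 RPKM or more in at least 3 of the 6 libraries compared were kept. A gene under 1 RPKM in every library of 1 group could pass only through the other group, which fixed its direction. Examples are Ugt2a2, Gm16404, Gm10058 and Areg among the rises and Fgf5, Stc2, Mycn, Col4a4 and Ifit1 among the falls. The p-values of such genes are no support for their direction. Log2(RPKM + 1) values of all 12 libraries were fitted with limma 3.58.1 in R 4.3.3, with a group term and empirical Bayes moderation with a trend, and p-values were adjusted by Benjamini-Hochberg over all genes tested. Calls required an adjusted p of at most 0.001 and a log2 fold change of at least 1; list members were counted at 0.05. The fit was tested on simulated data. Single values were tested with an exact permutation test in scipy 1.17.1, and figures were drawn with matplotlib 3.10.9. The members and gene lists were chosen with earlier results of these data known, so lists are described by counts and medians and were not tested. Named genes were the 12 largest called rises and falls, the 8 rises and falls called against both controls with the largest smaller change, up to 8 members per list by call and size, Purb, the genes of stained proteins and abundant markers; predicted genes took no place. Atf4, B2m, Chac1, Hk2, Igf1r, Irs1, Mvk, Vegfa, Imp3, Nop10 and 6 chaperones were added after their values were seen. Promoters were RefSeq sequences of GRCm38.p6, and transcripts were of GRCm38. Alternatives covered the pseudocount, the filter, quantile normalization, median centring, the libraries fitted, a replicate block, each library left out and the limits. A few genes that the naming rule selects are not reported here.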

Additional observations from a re-analysis of the deposited data

How the results depend on the processing

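Purb kept its direction and its side of the threshold under all alternatives, from -1.58 to -1.71, with adjusted p from 4.92e-10 to 3.6e-07. With each library left out in turn, 141 to 155 genes were called higher and 248 to 266 lower, 390 to 413 in all, and Purb lay between -1.68 and -1.58. Every other alternative gave 405 to 410 calls in all, apart from the pseudocount and the limits next named. A pseudocount of 0.1 gave 285 genes higher and 368 lower, 404 of them shared with the 406 calls, since low genes then reach larger fold changes. With no limit on the fold and 0.05 as the limit on the adjusted p, 3880 were higher and 3564 lower. Quantile normalization kept 383 of the 406 calls and median centring 395. Replicate numbers were shared by both groups. The deviations of same-numbered libraries from their group means correlated at 0.117, -0.184 and -0.0267, and those of libraries with unlike numbers at -0.183 to 0.236. With 3 libraries a group, these values cannot tell whether same-numbered libraries were handled together. The replicate block gave 408 calls over 12 libraries and 410 over 6, with all 406 shared in both. Signs turned for 5 named genes whose reported difference did not pass the test. Ctnnd1 was at 0.0126 under quantile normalization, Tjp1 at -0.0113 under median centring, and Vim at -0.1326 and -0.0068 under these 2 settings. With 1 library left out, Ctnnd1 ranged from -0.0595 to 0.0143, Tjp1 from -0.0282 to 0.055, Vim from -0.0099 to 0.0461, Col1a1 from -0.1297 to 0.0416 and Star from -0.0536 to 0.0162. Quantile normalization also put Vim past the test. Of all values of named genes under alternatives 4251 kept their direction and side of the threshold, 57 lost the threshold and 3 passed it. Medians of lists moved by more than the spread between libraries in 66 of the cases and not in 508. The p53 list median turned negative, to between -0.0661 and -0.0083, under both rescalings and without any 1 library, and the peritubular median was -0.0145 under quantile normalization. The causes of these shifts were not tested. Without read counts, the counting error of low genes is unknown.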
